A study of Mus musculus with 10 samples.

Results

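The genes described here are 9 inhibitors of the Wnt pathway out of the 27528 genes measured in mouse molar tooth germs. They were taken by Ensembl gene ID from the Wnt genes that the study tabulated. No cutoff on measured levels was used, but the list was chosen with earlier results of these data known. Of these, 3 encode secreted frizzled-related proteins (Frzb, ENSMUSG00000027004; Sfrp1, ENSMUSG00000031548; Sfrp2, ENSMUSG00000027996). Wif1 (ENSMUSG00000020218) encodes the secreted Wnt inhibitory factor. Another 3 encode Dickkopf proteins (Dkk1, ENSMUSG00000024868; Dkk2, ENSMUSG00000028031; Dkk3, ENSMUSG00000030772). Lrp4 (ENSMUSG00000027253) encodes a cell surface receptor and Nkd1 (ENSMUSG00000031661) an intracellular inhibitor. All 9 had a value on every array, and no filter on low values was applied.

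First molar germs of wild type NMRI mice, an outbred laboratory stock, were collected at the embryonic stage E13.5, when the molar is an epithelial bud, and at E14.5, 1 day later, when it is a cap. Each stage was represented by 5 Affymetrix Mouse Exon arrays, numbered 1, 2, 4, 5 and 6, and each array read RNA pooled from 12 to 18 germs. No allele or agent differed between the stages. The germs were whole, so epithelium, mesenchyme and the little tissue left around them were measured together, and the p-values below measure the spread between pools of embryos of 1 stock. Values are deposited signals read as log2, and a change is the mean at E14.5 minus the mean at E13.5.

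Wnt proteins signal by binding a Frizzled receptor together with the co-receptor Lrp5 or Lrp6, which stabilises beta-catenin and lets it act with Lef and Tcf factors on target genes. Frizzled-related proteins and Wif1 bind the Wnt ligand itself, Dickkopf proteins of the Dkk1 type bind the co-receptors, Lrp4 binds inhibitors such as Sostdc1 at the cell surface, and Nkd1 binds Dishevelled inside the cell. In the molar the pathway is used by the dental epithelium and its signalling centre, the enamel knot, as well as by the dental mesenchyme.

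Between the bud and the cap the inhibitors moved in opposite directions. The frizzled-related genes Frzb, Sfrp1 and Sfrp2 fell, by 1.35, 0.54 and 0.63 log2 units, whereas Wif1, Lrp4 and Nkd1 rose by 0.95, 0.88 and 0.45. The Dickkopf genes Dkk1, Dkk2 and Dkk3 did not pass the test. A gene was called where the limma p, adjusted by Benjamini and Hochberg's method over all genes, was under 0.05. Of the 9 inhibitors 6 were called, beside 7.85% of all genes. Of these, 3 were higher at E14.5, as were 4.36% of all genes, and 3 were lower, as were 3.49%. The same 6 had no overlap between the arrays of both stages, which held for 8.84% of all genes (4.82% higher and 4.01% lower). A call with a change of at least 0.5 in size was found for 5 of 9 inhibitors and for 3.13% of all genes. The median change of the 9 was 0.047, beside a median of -0.0145 over all genes.

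**Figure D1:**
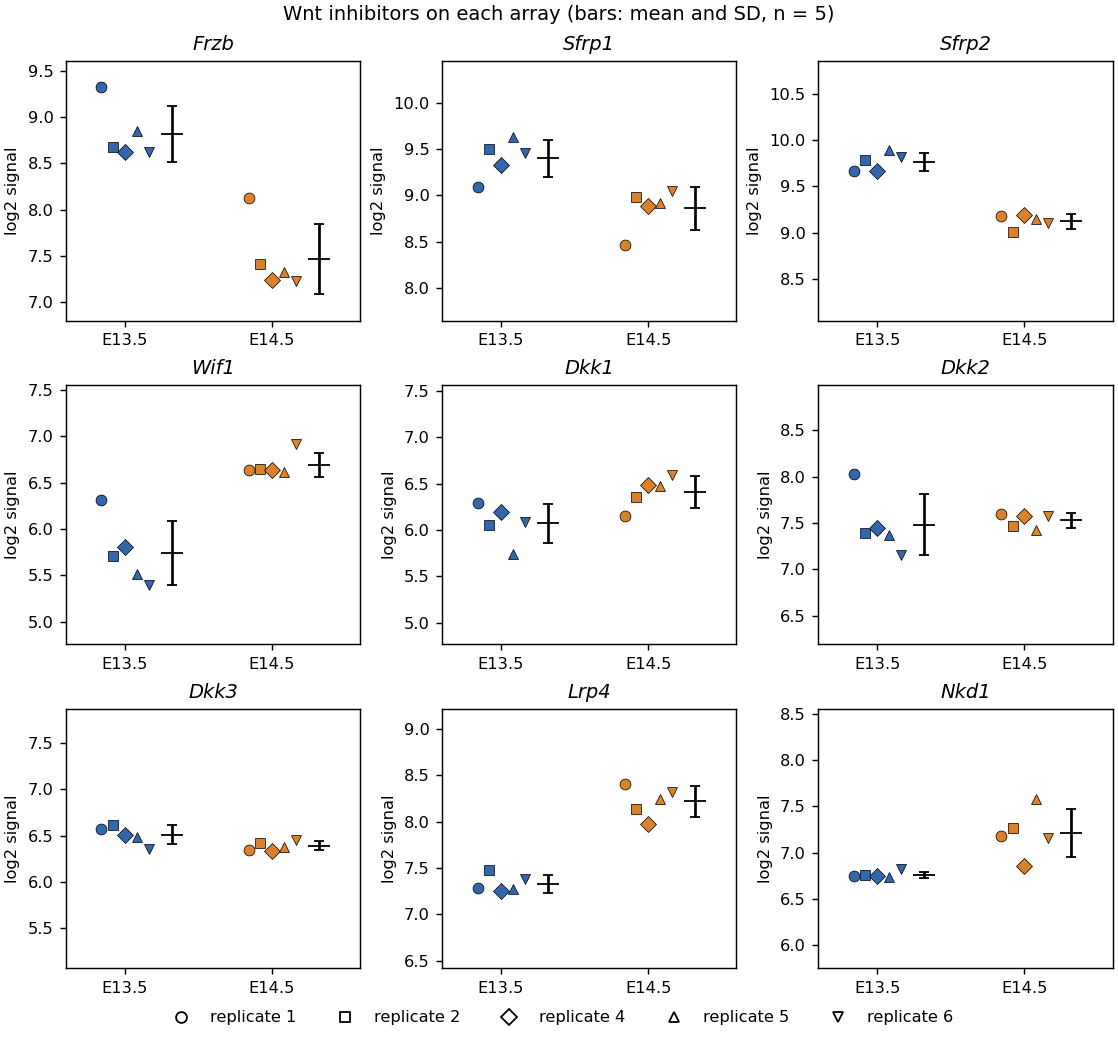
Log2 signal of each of the 9 Wnt inhibitors on the 5 arrays of E13.5 and the 5 arrays of E14.5, with 1 point per array and the mean and SD of each stage. Frzb, Sfrp1 and Sfrp2 lie lower at E14.5 and Wif1, Lrp4 and Nkd1 higher, each without overlap, while the points of the Dickkopf genes overlap.

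Arrays of a stage correlated at 0.975 to 0.994 across genes and arrays of different stages at 0.962 to 0.987. The tissue label was checked with marker genes. The 8 markers of dental mesenchyme, among them Msx1, Pax9 and Lhx6, averaged 8.27 to 8.50 at E13.5 and 7.33 to 7.48 at E14.5. Of these, 7 of 8 were called lower, beside 3.49% of all genes, and Runx2 was not (-0.086, limma adjusted p = 0.784). The 6 markers of dental epithelium used, Trp63, Cdh3, Perp, Lama3, Edar and Foxi3, averaged 7.10 to 7.69 at E13.5 and 8.11 to 8.32 at E14.5. Of these, 5 of 6 were called higher, beside 4.36% of all genes, and Foxi3 was not (1.02, limma adjusted p = 0.0513). These shifts stand beside every change of an inhibitor below, and in whole germs fewer cells of a type and less RNA per cell cannot be told apart. E13.5 replicate 1 stood apart, with an epithelial mean of 7.10 where the other arrays of its stage had 7.57 to 7.69. On that array Frzb, Wif1, Dkk1, Dkk2 had their highest E13.5 value and Sfrp1 its lowest. The part of these differences in the results below was not tested.

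Frzb, also known as Sfrp3, is a secreted protein that carries a Frizzled-like cysteine-rich domain and is best known from cartilage and limb development. At E13.5 its log2 signal was 9.32, 8.68, 8.62, 8.85 and 8.62 on replicates 1, 2, 4, 5 and 6, and at E14.5 it was 8.13, 7.41, 7.24, 7.33 and 7.23. Replicate 1 was the highest array at both stages, and the lowest bud array still lay 0.48 above the highest cap array. The mean went from 8.82 ± 0.30 to 7.47 ± 0.38 (SD, n = 5 each), a change of -1.35 ± 0.19 (SE) with a 95% interval of -1.76 to -0.94 and an adjusted p of 0.000812 (limma). Read as log2, that is a 2.55-fold lower signal, and the change ranked 59 by size among all 27528 genes. Frzb was also variable between arrays of the same stage, with a within-stage SD of 0.341 that exceeded that of 92.4% of genes. Over all alternatives its change lay between -1.52 and -1.23.

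Sfrp1 and Sfrp2 encode relatives of Frzb that also bind Wnts outside the cell. Sfrp2 read 9.66, 9.78, 9.66, 9.89 and 9.81 at E13.5 and 9.18, 9.01, 9.19, 9.15 and 9.10 at E14.5. The arrays of each stage lay close together and were separated by 0.47. Its mean fell from 9.76 ± 0.10 to 9.12 ± 0.08 (SD, n = 5 each), a change of -0.63 ± 0.068 (SE; 95% interval -0.78 to -0.48; limma adjusted p = 0.00014) or 1.55-fold. Sfrp1 read 9.09, 9.50, 9.33, 9.63 and 9.46 at E13.5 and 8.47, 8.98, 8.89, 8.92 and 9.05 at E14.5. Here replicate 1 was the lowest array of both stages, and the stages were separated by only 0.043. The mean fell from 9.40 ± 0.20 to 8.86 ± 0.23 (SD, n = 5 each), a change of -0.54 ± 0.12 (SE; 95% interval -0.81 to -0.27; limma adjusted p = 0.0197) or 1.45-fold. Its call was lost after quantile normalization (adjusted p = 0.0567) and without E13.5 replicate 5 (adjusted p = 0.0593), both with limma.

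Whether the 3 relatives fell unequally was asked from the difference between their values on the same array, which cancels a scaling shared by the array. The difference Frzb minus Sfrp1 changed by -0.81 and Frzb minus Sfrp2 by -0.72, so Frzb had the larger fall in both pairs. Neither passed after adjustment over the 6 pairs tested among frizzled-related and Dickkopf genes (exact two-sided permutation test, p = 0.0397 and 0.0238, adjusted p = 0.0794 and 0.0714). The result turned on E14.5 replicate 1, where Frzb was high and Sfrp1 low, as they also were on E13.5 replicate 1. Without the E14.5 array the differences changed by -1.08 and -0.87 with an adjusted p of 0.0317 for each (exact permutation test). Without E13.5 replicate 1 they changed by only -0.61 and -0.57, with an adjusted p of 0.119 and 0.0952 (exact permutation test). Sfrp1 minus Sfrp2 changed by 0.093 (exact permutation p = 0.532, adjusted p = 0.532), and by 0.21 without E14.5 replicate 1 (exact permutation test, adjusted p = 0.0571).

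RefSeq promoters (GRCm38.p6) were matched for 6 of 9 inhibitors by symbol, and Sfrp1, Dkk3 and Lrp4 were not in the table. They are shown for members that fell, rose or did not pass the test, since Lef and Tcf factors carry the output of the pathway to promoters. The core words searched were CTTTGA and CTTTGT, on both strands, in the 250 bases before the start of each gene. Their matches did not overlap each other. Of 32851 promoters of this length, 27.6% held either word, 13.8% CTTTGA and 16.5% CTTTGT, beside 3 of the 6 inhibitors. Sequences run 5′ to 3′ on the strand of the gene, with matches in capitals, read on the opposite strand as TCAAAG or ACAAAG. Frzb lies at chr2:80447397-80447646 on the minus strand and Sfrp2 at chr3:83766071-83766320 on the plus strand. Both were lower at E14.5.
Frzb: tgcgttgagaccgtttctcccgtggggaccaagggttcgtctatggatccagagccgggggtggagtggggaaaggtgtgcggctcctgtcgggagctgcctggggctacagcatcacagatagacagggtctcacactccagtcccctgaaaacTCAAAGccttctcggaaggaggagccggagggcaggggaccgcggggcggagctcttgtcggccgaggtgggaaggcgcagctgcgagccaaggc
Sfrp2: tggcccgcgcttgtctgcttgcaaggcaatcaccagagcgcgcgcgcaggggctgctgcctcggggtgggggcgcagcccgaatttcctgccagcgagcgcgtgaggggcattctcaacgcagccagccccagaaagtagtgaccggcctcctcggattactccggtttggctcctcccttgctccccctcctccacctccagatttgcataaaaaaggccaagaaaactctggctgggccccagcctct
Wif1, which was higher at E14.5, lies at chr10:121033754-121034003 on the plus strand, and Dkk1, which did not pass the test, at chr19:30549497-30549746 on the minus strand.
Wif1: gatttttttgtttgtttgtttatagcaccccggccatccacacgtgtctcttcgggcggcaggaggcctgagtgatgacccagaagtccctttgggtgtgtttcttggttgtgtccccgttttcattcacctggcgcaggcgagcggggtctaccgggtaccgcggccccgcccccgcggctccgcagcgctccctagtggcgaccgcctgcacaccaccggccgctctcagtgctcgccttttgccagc
Dkk1: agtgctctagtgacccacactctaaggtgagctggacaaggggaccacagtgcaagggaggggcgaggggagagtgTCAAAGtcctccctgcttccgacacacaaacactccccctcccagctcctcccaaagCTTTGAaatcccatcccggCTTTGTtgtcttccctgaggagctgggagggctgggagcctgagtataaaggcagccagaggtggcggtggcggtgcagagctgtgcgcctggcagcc
Frzb held 1 CTTTGA, on the opposite strand 95 to 90 bases before the start. Dkk1 held 3 matches, namely CTTTGA 174 to 169 bases before the start on the opposite strand, CTTTGA 117 to 112 bases before it on the strand of the gene, and CTTTGT 98 to 93 bases before it on the strand of the gene. The windows of Sfrp2 and Wif1 held none, nor did that of Nkd1, and Dkk2 held 1 CTTTGT. Genes that fell and genes that did not pass the test thus both included windows with a match. The dinucleotide CG occurred 16 times in the Frzb and Sfrp2 windows, 21 times in that of Wif1 and 6 times in that of Dkk1, with a median of 6 over all promoters. A match is a string of letters and not a measured binding site.

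Wif1 encodes a secreted protein whose WIF domain binds Wnts outside the cell. It read 6.31, 5.71, 5.80, 5.51 and 5.39 at E13.5 and 6.64, 6.65, 6.64, 6.61 and 6.92 at E14.5. The cap arrays were tightly grouped apart from replicate 6, whereas the bud arrays were spread, with replicate 1 the highest. The mean went from 5.74 ± 0.35 to 6.69 ± 0.13 (SD, n = 5 each), a change of 0.95 ± 0.15 (SE; 95% interval 0.62 to 1.28; limma adjusted p = 0.00195) or 1.93-fold, with 0.30 between the closest arrays of the stages.

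The Dickkopf genes of the list, Dkk1, Dkk2 and Dkk3, gave no call. Dkk1, which encodes the best known blocker of Lrp5 and Lrp6, read 6.29, 6.05, 6.19, 5.74 and 6.09 at E13.5 and 6.15, 6.35, 6.48, 6.47 and 6.59 at E14.5. The stages overlapped through replicate 1, the highest of the bud arrays and the lowest of the cap arrays. The means were 6.07 ± 0.21 and 6.41 ± 0.17 (SD, n = 5 each), and the change of 0.34 ± 0.11 (SE; 95% interval 0.093 to 0.58) had an adjusted p of 0.103 (limma). It passed the threshold without E14.5 replicate 1 (change 0.40, adjusted p = 0.0491), with array quality weights (0.49, adjusted p = 0.0135) and with dim genes left out of the test (0.34, adjusted p = 0.0461), all with limma.

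Dkk2 encodes a relative that can block or promote signalling depending on its partners. It read 8.03, 7.39, 7.45, 7.37 and 7.15 at E13.5 and 7.60, 7.47, 7.57, 7.42 and 7.57 at E14.5. The cap arrays lay within the range of the bud arrays. Its means were 7.48 ± 0.33 and 7.53 ± 0.08 (SD, n = 5 each), and the change of 0.047 ± 0.14 (SE) had a 95% interval of -0.25 to 0.34 and an adjusted p of 0.933 (limma). Without E13.5 replicate 1 the change was 0.18, and without E13.5 replicate 6 it was -0.036, neither past the threshold.

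Dkk3 encodes a divergent Dickkopf protein. It read 6.57, 6.61, 6.51, 6.48 and 6.35 at E13.5 and 6.34, 6.42, 6.33, 6.38 and 6.45 at E14.5. The stages overlapped because bud replicate 6 lay among the cap arrays. The means were 6.51 ± 0.10 and 6.39 ± 0.05 (SD, n = 5 each), with a change of -0.12 ± 0.065 (SE; 95% interval -0.26 to 0.024; limma adjusted p = 0.379). Taken against each other on the same array, Dkk1 minus Dkk3 changed by 0.45, with no overlap between stages and an adjusted p of 0.0476 (exact two-sided permutation test, 6 pairs, p = 0.00794, the smallest it can give). With 1 array left out the smallest exact p is 0.0159, which adjusts to 0.0952 where no other pair reaches it. The adjusted p was 0.0952 in 8 of 10 omissions of an array. These omissions therefore cannot show whether the difference became weaker. Dkk1 minus Dkk2 changed by 0.29 (exact permutation p = 0.119, adjusted p = 0.179) and Dkk2 minus Dkk3 by 0.16 (exact permutation p = 0.246, adjusted p = 0.295). Dkk2 minus Dkk3 passed without E13.5 replicate 1, with a change of 0.29 and an adjusted p of 0.0476 (exact permutation test).

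Lrp4 encodes a receptor of the LDL receptor family that restrains Wnt signalling in teeth and other organs and also organises the neuromuscular junction. Its signal was 7.28, 7.48, 7.25, 7.27 and 7.38 at E13.5 and 8.41, 8.14, 7.97, 8.24 and 8.32 at E14.5. Every cap array lay above every bud array, with 0.49 between the closest. The mean went from 7.33 ± 0.10 to 8.22 ± 0.17 (SD, n = 5 each), a change of 0.88 ± 0.089 (SE; 95% interval 0.69 to 1.08; limma adjusted p = 8.47e-05) or 1.84-fold. That adjusted p was the lowest of the 9, and it stayed between 7.56e-06 and 0.00101 in all alternatives.

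Nkd1 encodes an inhibitor that binds Dishevelled and whose transcript is raised by Wnt signalling in many tissues. It read 6.75, 6.76, 6.75, 6.74 and 6.82 at E13.5 and 7.18, 7.27, 6.86, 7.58 and 7.16 at E14.5. The bud arrays were nearly equal, the cap arrays were spread from replicate 4 to replicate 5, and the stages were separated by 0.043. The mean went from 6.76 ± 0.03 to 7.21 ± 0.26 (SD, n = 5 each), a change of 0.45 ± 0.11 (SE; 95% interval 0.21 to 0.69; limma adjusted p = 0.0262) or 1.36-fold. The call was lost when arrays were centred on their median (adjusted p = 0.057) and in 5 of 10 omissions. Without E13.5 replicates 1, 4 or 5 the adjusted p was 0.0549, 0.0576 and 0.0686, and without E14.5 replicates 2 or 6 it was 0.0641 and 0.0571 (limma).

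**Figure D2:**
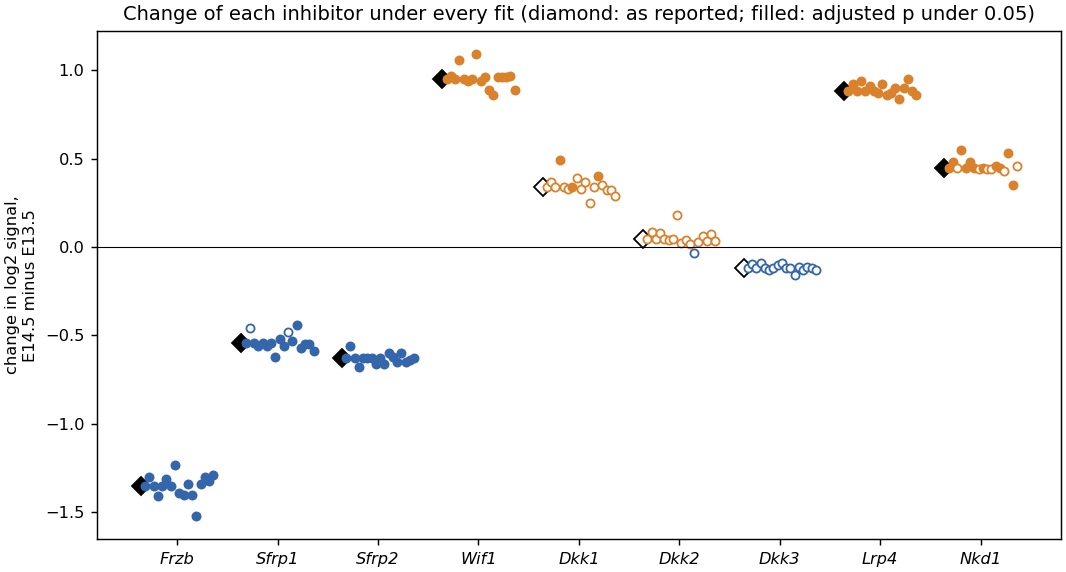
Change in log2 signal (E14.5 minus E13.5) of each inhibitor in the deposited values (diamonds) and under each other fit (circles, orange above 0 and blue below), filled where the limma adjusted p was under 0.05. The changes of Frzb stay between -1.52 and -1.23, while Sfrp1, Dkk1 and Nkd1 cross the threshold under some settings.

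The inhibitors were also set against the markers of the 2 tissue layers on the same array, a description chosen after the values were seen and not tested. Relative to the mean of the 8 mesenchyme markers, Frzb changed by -0.39 ± 0.17 (SE, n = 5 per stage) with overlap between stages, Sfrp1 by 0.42 ± 0.13 with overlap, and Sfrp2 by 0.33 ± 0.074 without overlap. The frizzled-related genes were therefore not all lower once the mesenchyme markers were the reference. For Frzb the overlap came from E14.5 replicate 1, where Frzb was 8.13 beside 7.23 to 7.41 on the other cap arrays. Relative to the mean of the 6 epithelium markers, Wif1 changed by 0.22 ± 0.21, Lrp4 by 0.16 ± 0.13 and Nkd1 by -0.28 ± 0.15, each with overlap between stages. On this scale the changes of Wif1 and Lrp4 were about the size of their SE or little above it, and that of Nkd1 was lower by more than its SE. For Wif1 the overlap came from E13.5 replicate 1, where Wif1 was 6.31 and the epithelium mean 7.10. Its difference from that mean had an SD of 0.58 at E13.5 and 0.12 at E14.5. On the same array the differences of Lrp4 and Nkd1 were also the highest of the bud stage. The changes on this scale were not computed without it. Dkk1 changed by 1.30 ± 0.14 and -0.39 ± 0.18 relative to mesenchyme and epithelium markers, Dkk2 by 1.01 ± 0.14 and -0.68 ± 0.21, and Dkk3 by 0.84 ± 0.09 and -0.84 ± 0.15. The marker means themselves changed by -0.96 and 0.73, which sets the offset between these scales. How much of any change came from the makeup of the germs was not tested.

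**Figure D3:**
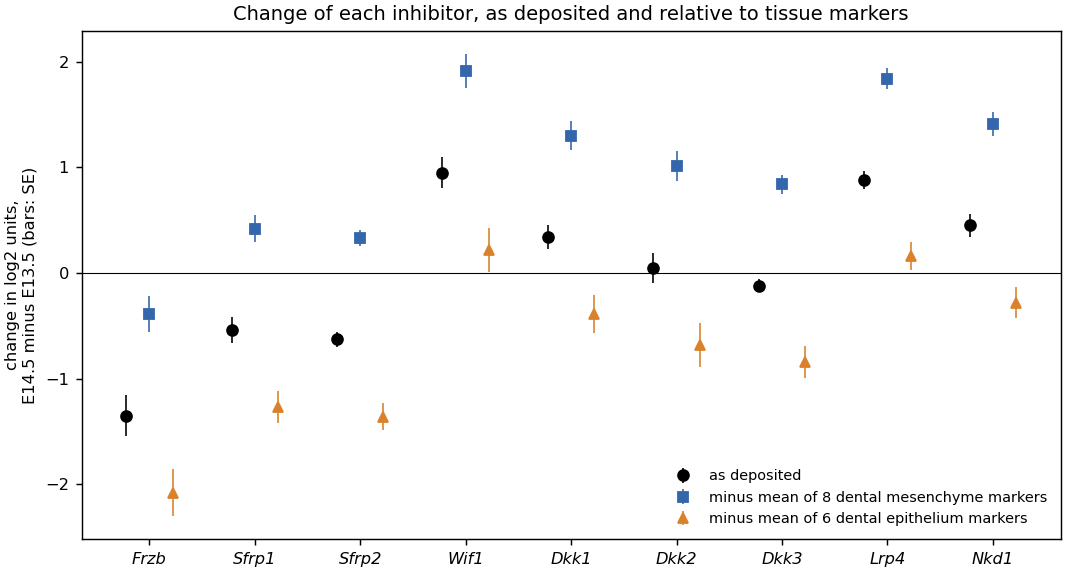
Change in log2 signal (E14.5 minus E13.5, with SE) of the 9 inhibitors in the deposited values, relative to the mean of 8 mesenchyme markers and relative to the mean of 6 epithelium markers on the same array. Frzb is lower on all 3 scales, Sfrp1 and Sfrp2 are higher relative to mesenchyme markers, and relative to epithelium markers Wif1 and Lrp4 lie at 0.22 and 0.16 and Nkd1 at -0.28.

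The genes whose signals followed each inhibitor most closely were sought among 387 genes with a symbol in the study's lists, by Pearson r over the 10 arrays. These correlations share the difference between stages, so r after removing the stage means is given beside them. Sfrp2 followed Pax9 (r = 0.993, 0.88 without the stage means) and Msx1 (0.981, 0.61), which encode transcription factors of the dental mesenchyme. Frzb followed Gab1 (0.976, 0.85) and Kif3a (0.965, 0.79), and Sfrp1 followed Bmp6 (0.913, 0.72) and Gas1 (0.875, 0.65). Wif1 followed Alpl (0.983, 0.95), which encodes the alkaline phosphatase of mineralising tissue, and Sostdc1 (0.972, 0.85). Lrp4 followed Reln (0.980, 0.70) and Cdh3 (0.979, 0.88), the latter P-cadherin of epithelia. Nkd1 was closest to Fst (0.942, 0.85) and to Lef1 (0.911, 0.80), the nuclear factor of the pathway. Among the Dickkopf genes, Dkk1 was closest to Sema3b (0.893, 0.77) and Inhbb (0.881, 0.77), Dkk2 to Araf (0.872, 0.88) and Wnt2b (0.836, 0.89), and Dkk3 to Wnt2 (0.799, 0.71) and Notch4 (0.777, 0.70).

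Of the 6 other secreted or membrane inhibitors tabulated by the study, 4 rose, 0 fell and 2 did not pass the test, with a median change of 0.48. Dkk4, a Dickkopf gene of the tooth placode and enamel knot, rose from 4.55 ± 0.22 to 5.73 ± 0.15 (SD, n = 5 each), by 1.18 ± 0.11 (SE; limma adjusted p = 5.02e-05). Sostdc1, which encodes the ligand that Lrp4 binds, rose by 0.95 ± 0.13 (adjusted p = 0.000715). The ubiquitin ligases that remove Frizzled receptors from the surface also rose, Rnf43 by 0.62 ± 0.10 (adjusted p = 0.00241) and Znrf3, named after its value was seen, by 0.34 ± 0.074 (adjusted p = 0.0135), all with limma. The remaining frizzled-related genes Sfrp4 and Sfrp5 changed by 0.11 and 0.25, with adjusted p of 0.465 and 0.137.

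Inside the cell, 1 of 9 inhibitors fell and 8 did not pass the test (median change -0.025). The one was Nkd2, the relative of Nkd1, which fell by 0.32 ± 0.085 (SE; limma adjusted p = 0.0423) and lost its call on centred arrays (adjusted p = 0.101). Its call was also lost in 7 of 10 omissions, those of E13.5 replicates 1, 5 or 6 and of E14.5 replicates 2, 4, 5 or 6, with changes of -0.33 to -0.26 and adjusted p of 0.0767 to 0.121. Axin2, a scaffold of the beta-catenin destruction complex often used as a readout of Wnt signalling and named after its value was seen, changed by -0.11 ± 0.097 (adjusted p = 0.634), and by -0.17 to -0.064 when single arrays were left out (-0.064 without E14.5 replicate 4, -0.068 without E13.5 replicate 6, -0.17 without E13.5 replicate 4 or E14.5 replicate 5). Among the 19 Wnt ligands 6 rose and 0 fell, with the largest changes in Wnt10a (1.46 ± 0.10, adjusted p = 8.17e-06), Wnt10b (0.88 ± 0.078, adjusted p = 3.76e-05) and Wnt3 (0.84 ± 0.087, adjusted p = 0.000111). All 3 encode ligands of the canonical branch of the pathway. The ligands called were 3 without replicate 5 of either stage or replicate 6 of E14.5, and 4 with the replicate number as a block. Among 12 receptors 4 rose and 0 fell, led by Fzd1 (0.57 ± 0.13, adjusted p = 0.0215) and Fzd5 (0.53 ± 0.086, adjusted p = 0.00229). Omitting any of these 3 arrays also left 2 receptors called. Fzd1 lost its call without E13.5 replicate 5 or E14.5 replicates 2, 5 or 6, with changes of 0.54 to 0.58 and adjusted p of 0.0513 to 0.0646 (limma). Of the 4 Lef and Tcf factors, Tcf7 rose by 0.47 ± 0.081 (adjusted p = 0.00345), while Lef1 changed by 0.26 (adjusted p = 0.111). None of the 10 signal transducers, which include beta-catenin and the Dishevelled genes, passed (0 at an unadjusted p under 0.05, limma), nor did the 2 genes of Wnt release (1 at an unadjusted p under 0.05). Together 15 of these 62 genes rose and 1 fell, beside 4.36% of all genes called higher and 3.49% called lower, and the lists were not tested against each other.

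**Figure D4:**
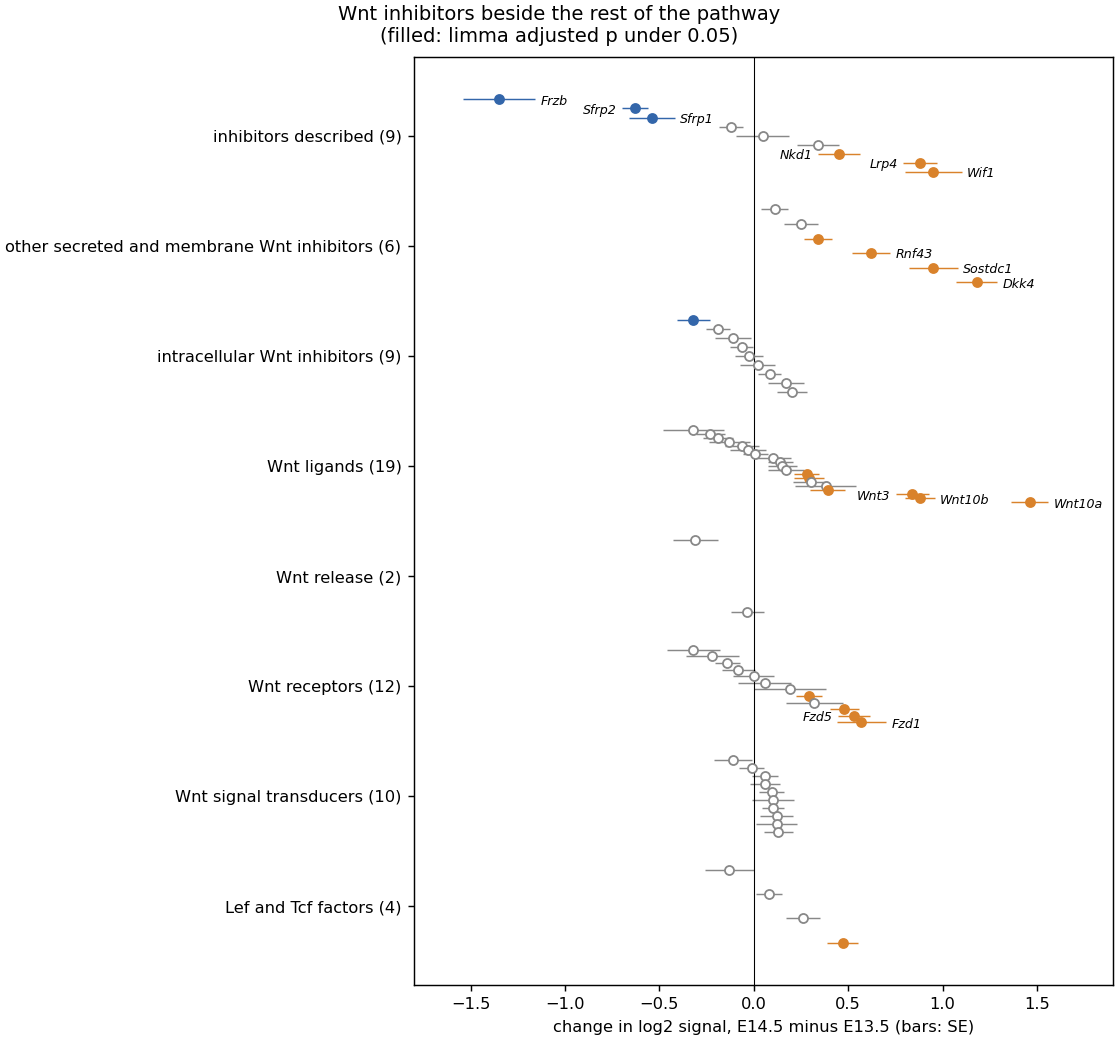
Change in log2 signal (E14.5 minus E13.5, bars SE) of the 9 inhibitors and of the 62 other Wnt pathway genes by role, with 1 point per gene, filled orange for genes called higher and filled blue for genes called lower by limma. Blue points are the 3 frizzled-related genes and Nkd2, and Wnt10a and Dkk4 lie farthest to the right.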

How the data were processed

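RNA of pooled first molar germs was hybridised to Affymetrix Mouse Exon 1.0 arrays. The authors normalized the signals with aroma.affymetrix and the Brainarray custom CDF version 23, which groups probes by Ensembl gene, and 1 value per gene and array was deposited, taken here as a log2 signal from its range (up to 12.83). The log base, background correction and summary model are not given in the sources used here, so folds hold on that reading. A signal depends on how well the probes of a gene bind, so levels of different genes were not compared. Detection calls, scanner files and dates of scanning were not used here.

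Samples were grouped by embryonic day. The limma package (3.58.1, R 4.3.3) fitted every gene by lmFit with eBayes over all 10 arrays, without covariates and two-sided, with Benjamini-Hochberg adjustment over 27528 genes and a threshold of 0.05. The limma script was tested on simulated data. Differences between family members were tested with exact permutations (Python 3.11.15, numpy 2.4.6). The alternatives were a replicate block, quantile normalization, median centring, array weights, a trended prior variance, the array spread as a covariate, omission of genes below the median signal, omission of each array, and a threshold of 0.01. Symbols came from the study's lists.

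The inhibitors and all gene lists were chosen with earlier results of these data known. All 9 inhibitors are named. Other Wnt genes are named where they passed the threshold with a change of at least 0.5, or as the up to 2 largest past it in a list without such a gene. For each inhibitor the 2 most correlated genes are named, and genes of marker lists where these are discussed. Of the epithelium markers, 2 are not reported here and were left out of every mean over that list. The number of arrays limits the precision.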

Additional observations from a re-analysis of the deposited data

Results flagged for a closer look

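In 5 of 42 sets of 5 arrays examined (each inhibitor and each named Wnt gene at each stage), 1 array lay far from the other 4, where chance gives about 2.1. Frzb on E14.5 replicate 1 was at 8.13, with the others at 7.23 to 7.41, so that the gap took 0.801 of the range. Sfrp1 on the same array was at 8.47, below 8.89 to 9.05 on the others (0.737 of the range). Wif1 on E14.5 replicate 6 was at 6.92, above 6.61 to 6.65 (0.866 of the range). Nkd1 on E13.5 replicate 6 was at 6.82, above 6.74 to 6.76 (0.741 of the range), in a set with an SD of only 0.03. The receptor gene Fzd1 on E13.5 replicate 1 was at 7.06, below 7.58 to 7.75 (0.750 of the range). That array also had the lowest mean of the epithelium markers, 7.10.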

How the results depend on the processing

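Frzb, Sfrp2, Wif1 and Lrp4 kept direction and call under every alternative run at the 0.05 threshold and at 0.01. At 0.01 the calls of Sfrp1 (-0.54) and Nkd1 (0.45) were lost, 1155 genes were called in place of 2162, and 9 other Wnt genes in place of 16. With quantile normalization Sfrp1 was at -0.46 and lost its call, while Frzb minus Sfrp2 was at -0.74 and passed (exact permutation test, adjusted p = 0.0476). On centred arrays Nkd1 was at 0.45 and lost its call. Dkk1 passed with array weights (0.49) and without dim genes (0.34), and array weights called 3911 genes. Among these alternatives only Dkk2 changed sign, to -0.036 without E13.5 replicate 6, with no call on either side. The scales relative to tissue markers are not among them, and there more signs differed from the deposited values. Relative to mesenchyme markers Sfrp1, Sfrp2 and Dkk3 changed by 0.42, 0.33 and 0.84. Relative to epithelium markers Dkk1, Dkk2 and Nkd1 changed by -0.39, -0.68 and -0.28. Changes on these scales were not tested. Leaving out each array gave -0.62 to -0.44 for Sfrp1, 0.25 to 0.40 for Dkk1, -0.036 to 0.18 for Dkk2 and 0.35 to 0.53 for Nkd1. It gave 4 (without E13.5 replicate 5) to 7 inhibitors called, 1479 to 2554 genes called, and 10 to 18 other Wnt genes called, with the lowest number, 10, without replicate 5 of either stage or replicate 6 of E14.5. The differences within families ran from -1.08 to -0.61 for Frzb minus Sfrp1, -0.87 to -0.57 for Frzb minus Sfrp2, 0.033 to 0.21 for Sfrp1 minus Sfrp2, 0.38 to 0.51 for Dkk1 minus Dkk3 and 0.12 to 0.29 for Dkk2 minus Dkk3. Of the Wnt genes named outside the 9, Znrf3 and Nkd2 lost their calls on centred arrays (adjusted p = 0.0599 and 0.101, limma). On centred arrays 11 other Wnt genes were called in place of 16. At 0.01 the calls of Znrf3, Nkd2 and Fzd1 were lost. The cause of these changes was not tested. The labels give arrays of both stages the same numbers but do not tie them to a litter or day, and the deviations of arrays with equal numbers correlated at 0.393, -0.079, 0.513, 0.030 and 0.283, above 0.1 in 3 of 5, so they were not treated as pairs. Replicates 1 and 4, but not 2, 5 and 6, correlated best with their own number, a hint from the data and not from the design. With the replicate number as a block 2077 genes and 6 inhibitors were called, and no call of an inhibitor changed. By replicate number, a comparison chosen after seeing the data, Frzb minus Sfrp1 was lower at E14.5 in 5 of 5 numbers (-0.98 to -0.57) and Frzb minus Sfrp2 in 5 of 5 (-0.91 to -0.50), while Dkk1 minus Dkk2 (0.079 to 0.68) and Dkk1 minus Dkk3 (0.084 to 0.83) were higher in 5 of 5. An exact sign-flip test over 5 numbers cannot go below p = 0.0625. Signal over background and scan batch were not examined.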

Other observations

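The enamel knot markers overlap the Wnt lists in Wnt10a and Wnt10b, and the epithelium markers in Edar. Of these markers 9 of 12 were called higher at E14.5 and 0 lower, with a median change of 0.85. Over all genes 4.36% were called higher and 3.49% lower. Shh, the signal most typical of the knot, changed by 2.02 ± 0.14 (SE; limma adjusted p = 8.69e-06), and Fgf4 by 1.59 ± 0.11 (adjusted p = 8.17e-06). The array means of these markers were 5.87 to 6.19 at E13.5 and 6.87 to 7.21 at E14.5. Of 8 markers of fibroblast and bone matrix, 4 were called higher and 1 lower, 5 in all, and 3 in all without replicate 1 of E13.5, replicate 2 of E14.5 or replicate 5 of either stage. Among them Spp1, which encodes osteopontin, changed by 1.89 (adjusted p = 3.31e-05) and Alpl by 0.74 (adjusted p = 0.00897), while Postn, which encodes periostin, fell by 0.60 (adjusted p = 0.000745, all limma). Their part in the changes of the inhibitors was not tested.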
